A study of Saccharomyces cerevisiae with 12 samples.

Results

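C403A and C406A, a pair of amino acid substitutions in the same protein domain, were compared in budding yeast that had not been treated with any DNA-damaging agent. The comparison sets the arrays labelled C403A without treatment (2 arrays) against those labelled C406A without treatment (2 arrays), which are 4 of the 12 arrays of the study. They were taken by their labels alone, and the comparison was made across all genes that passed a filter on low values. The study hybridized total RNA of 3 Saccharomyces cerevisiae strains to one-colour Affymetrix yeast arrays with 2 arrays for each of 6 groups. The groups compared here were untreated C403A, untreated C406A, MMS-treated C403A and MMS-treated C406A, and untreated wild type was read for its levels. All 6 groups, MMS-treated wild type included, gave the shared spread behind the p-values. MMS, methyl methanesulfonate, is an agent that methylates DNA, and it was given at 0.03% for 30 minutes. The labels call both strains TFIIH mutants without naming a subunit. What is known of the study places both changes, each of a cysteine to alanine, in the RING finger of Ssl1. The labels number no replicates, so 1 and 2 only name the arrays of a group here. Nothing in them says that these came from separate cultures, or how the mutant alleles are carried. The p-values therefore measure only the spread between arrays of a group, pooled over the 6 groups, which may be technical.

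TFIIH melts the DNA at promoters so that RNA polymerase II can start, and in nucleotide excision repair it opens the helix around lesions. Ssl1 is one of its core subunits and contacts the helicase subunits Rad3 and Ssl2. A RING finger is a small fold held together by zinc ions bound to cysteine and histidine side chains. In yeast the phosphate regulon, which recurs below, is switched on by the transcription factor Pho4. The cyclin and kinase pair Pho80 and Pho85 keeps Pho4 off when phosphate is plentiful, and Pho81 inhibits that pair when phosphate is scarce.

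Levels are given as normalized intensity, on a linear scale after quantile normalization, with values under a floor of 34.5 set to that floor. Differences are log2 values of C403A minus C406A, each ± its standard error in the limma fit. A gene is said to pass when its adjusted p (Benjamini-Hochberg, over all genes) is under 0.05. Over all 12 arrays the median deposited intensity lay between 184.5 and 311. Precision is limited by having 2 arrays per group. All arrays were of one lot and were scanned on one day, the untreated C403A arrays at positions 5 and 6 and the untreated C406A arrays at positions 9 and 10, so strain and scan order cannot be told apart. Array 2 of untreated C403A stood apart in its ribosomal RNA probes, with a mean of 1775 against 53.7 on array 1 of that group. On the untreated C406A arrays that mean was 244.5 and 160.7. The ratio of 3′ to 5′ actin signal was 1.17 and 1.26 in untreated C403A, against 1.12 and 1.14 in untreated C406A. Across the genes tested the C403A pair correlated with r = 0.985 and the C406A pair with r = 0.993, while pairs across the 2 strains gave 0.982 to 0.989, a description since genes are not independent. All 7 genes specific to MATa cells were above the floor on every array, with summed levels of 16880 to 20170. The 4 genes specific to MATalpha cells were also above the floor on every array, and summed to 1034 to 1512.

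Few genes passed with 2 arrays per group. Of 5368 genes tested, 35 passed (0.652%), with 18 higher in C403A (0.335% of all genes) and 17 lower (0.317%). At an unadjusted p under 0.05 there were 883, which is 16.4%. Each array measured the RNA of many cells together, so a gene lower in all cells and one expressed in fewer cells cannot be told apart. Among the 35 were phosphate genes, SSL1 with the gene beside it, the chaperone gene HSP82 and the checkpoint kinase gene TEL1. The differences were small, since 6 of the 35 reached 2-fold (4 higher, 2 lower) and the smallest was 0.29 on the log2 scale, for CYS3. Adjusted p ran from 0.0169 to 0.0491, and all 35 had C403A arrays that did not overlap the C406A arrays, which held for 2670 of all genes (49.7%, with 29.5% higher and 20.2% lower in C403A). The median difference of all genes was 0.03 and the median standard error 0.11. For 93.5% of genes the 95% interval of the difference lay within 1 log2 unit of 0, and of the 36 genes whose difference was 1 or more, 30 did not pass. That interval takes 1 spread pooled over the 6 groups. The array weights of limma, lower for noisier arrays, were 0.623 for the untreated C403A arrays and 1.5 for the untreated C406A arrays.

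The count of 35 depended on single arrays. Without array 1 or array 2 of untreated C406A no gene passed (705 and 492 at an unadjusted p under 0.05), and none passed when the spread was estimated from the 4 arrays alone (752 unadjusted). Without array 1 of untreated C403A 107 genes passed, and without array 2, the one with high ribosomal RNA signal, 30 passed, of which 10 were among the 35. Without either MMS-treated C403A array, which enters only through the shared spread, 7 passed. All 35 genes kept the sign of their difference when any of these arrays was left out. That was fixed in advance, since their untreated arrays did not overlap and the MMS-treated arrays do not enter the difference. As deposited, with no normalization, the median of all genes shifted to 0.24 and 13 genes passed, 76.9% of them higher in C403A, against 51.4% after quantile normalization, and the values of 18 of the 35 moved by over 1.5 times. With the floor at the 40th percentile, a normalized intensity of 148, 36 genes passed, 2 of the 35 were no longer tested (RMR1 and YPS6), and 6 others of the 35 had differences over 1.5 times smaller.

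**Figure D1:**
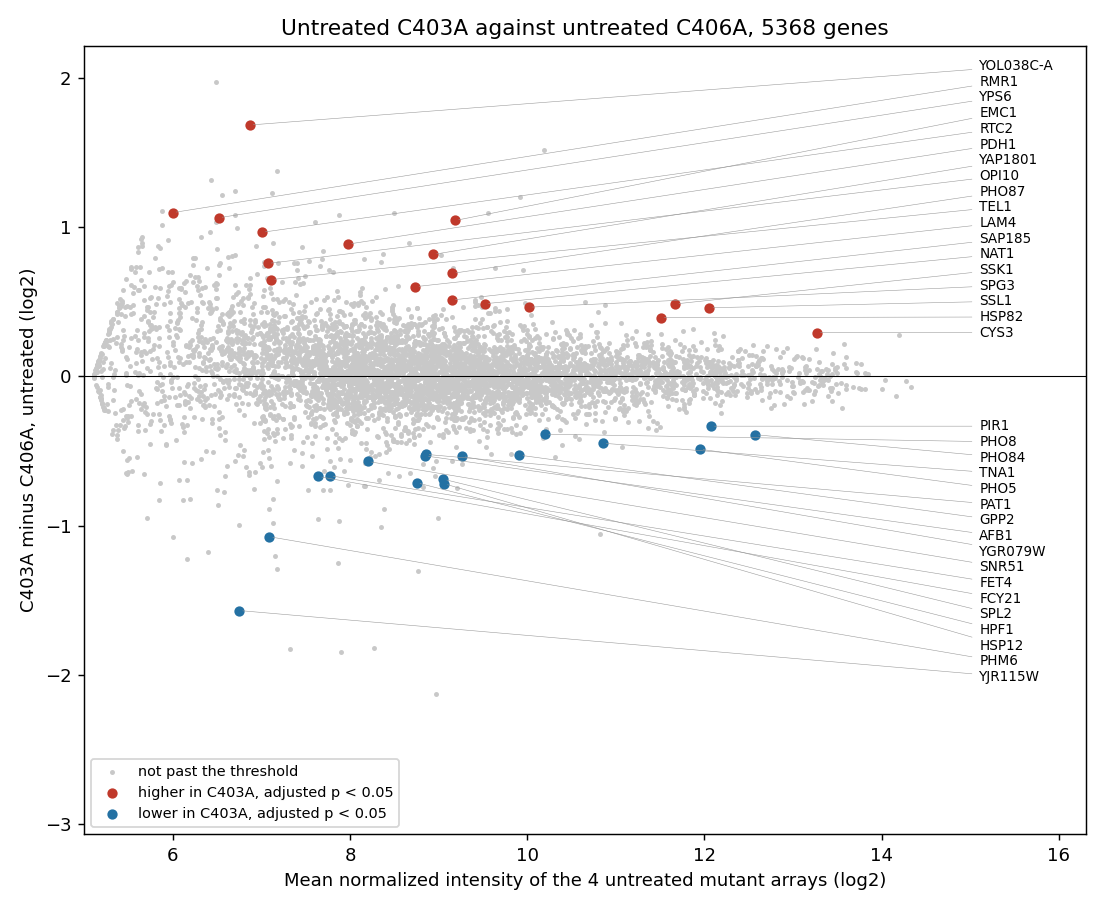
Difference between untreated C403A and untreated C406A (log2, vertical) against the mean normalized intensity of the 4 arrays (log2, horizontal) for 5368 genes, each a point. The 18 genes that passed as higher in C403A are red and the 17 that passed as lower are blue. Dimmer genes scatter more widely, and several grey points lie farther from 0 than most of the coloured ones.

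SSL1, the gene that carries the substitutions, was more abundant in C403A. It measured 4840 and 5021 in C403A, against 3691 and 3485 in C406A, while the wild-type arrays read 1734 and 1697. Both mutants lay above wild type on every array and C403A lay above C406A, by 0.46 ± 0.08 on the log2 scale (1.37-fold, adjusted p = 0.0463). This call was near the threshold: adjusted p ranged from 0.0383 to 0.413 over the alternatives run, with a difference between 0.42 and 0.66. The neighbouring gene SSK1, which encodes the response regulator that relays osmotic stress to the HOG kinase cascade, had the same pattern. SSK1 read 3762 and 3851 in C403A, against 2754 and 2686 in C406A and 1242 and 1141 in wild type. It was 1.40-fold higher in C403A (log2 0.48 ± 0.07, adjusted p = 0.0340). These were the only 2 of the 35 genes that lie next to each other among the genes tested.

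On the other side of SSL1, THI73, a gene for a plasma membrane permease, had a difference of -0.53 ± 0.44 (adjusted p = 0.571). NSE1, which encodes a subunit of the Smc5-Smc6 complex and lies beyond SSK1, had -0.11 ± 0.08 (adjusted p = 0.546). None of the other tested genes within 6 places on either side passed. The median over 467 genes of chromosome XII, which holds SSL1, was 0.00. Medians of the 16 chromosomes ran up to 0.11 for chromosome IX.

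Of the 10 TFIIH genes tested, 1 passed, SSL1 itself, against 0.652% of all genes. A positive difference was found in 8 of the 10, against 2993 of 5368 over all genes, and the median was 0.21, against 0.03. TFB3, which encodes the subunit that joins the core to the kinase module, read 226 and 271 in C403A, against 174 and 192 in C406A (log2 0.44 ± 0.20, adjusted p = 0.309). The genes for the kinase Kin28 (0.24 ± 0.09) and the helicases Ssl2 (0.24 ± 0.12) and Rad3 (0.23 ± 0.11) had smaller positive differences. TFB5 (0.19 ± 0.16), the cyclin gene CCL1 (0.08 ± 0.10) and TFB4 (0.04 ± 0.10) were closer to 0, and TFB1 (-0.15 ± 0.11) and TFB2 (-0.10 ± 0.10) were negative. None of these 9 passed, with adjusted p of 0.246 or more. Of 16 genes of nucleotide excision repair none passed (median 0.06), and of 12 genes induced by the DNA damage checkpoint none passed (median 0.08).

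Genes used as strain markers did not differ beyond the threshold. LEU2, for leucine synthesis, read 8172 and 7788 in C403A, against 7190 and 7078 in C406A and 4072 and 4292 in wild type. Both mutants were above wild type, while the difference between them was 0.16 ± 0.06 (adjusted p = 0.255). LYS2 had a difference of 0.07 ± 0.08, HIS3 of -0.09 ± 0.07, ADE2 of 0.01 ± 0.20 and URA3, which was at the floor on 3 of the 4 arrays, of -0.16 ± 0.21.

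**Figure D2:**
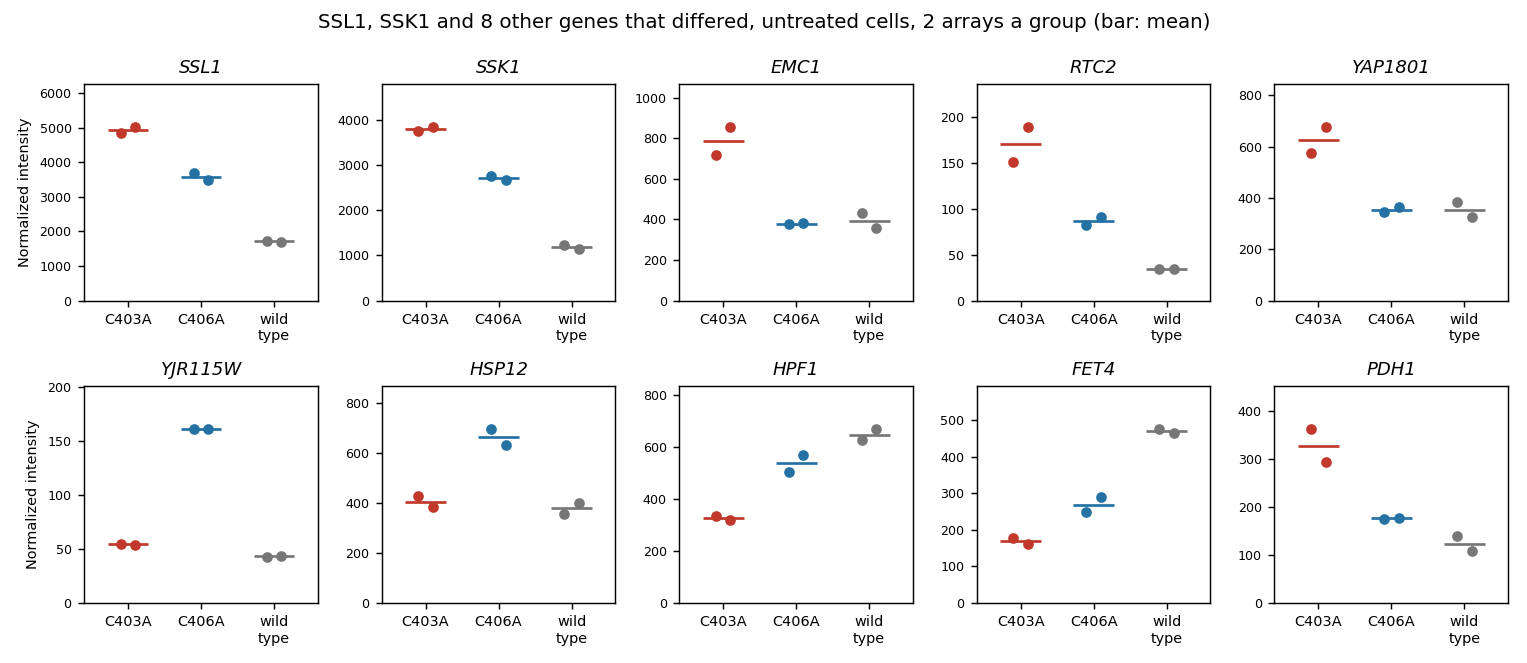
Normalized intensity (linear, from 0) in untreated C403A, C406A and wild type of SSL1, SSK1 and 8 other genes that passed, with a point for each array and a bar at the mean of the 2. SSL1, SSK1, RTC2 and PDH1 step down from C403A to C406A to wild type. YJR115W and HSP12 are high in C406A only among these 3 strains, and FET4 and HPF1 step up from C403A to wild type.

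The phosphate genes were the largest group among the differences. Of 18 tested members of the phosphate regulon list, 6 were lower in C403A and none was higher, a share of 33.3% against 0.317% of all genes that were lower. The median of the list was -0.30, against 0.03 over all genes, and 16 of 18 members were negative. In 13 members (72.2%) both C403A arrays lay below both C406A arrays, against 20.2% of all genes. The count was 3 after median scaling and 0 on the values as deposited, where 11 of 18 members were negative and the list's median of -0.06 stood against 0.24 for all genes. It was 0 without either untreated C406A array, 4 without array 2 of untreated C403A and 2 without either MMS-treated C403A array, and without any of the untreated mutant arrays 15 or 16 members were negative.

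Among the enzymes and transporters, PHO5, the secreted acid phosphatase, read 3323 and 3238 in C403A, against 4681 and 4521 in C406A and 4238 and 4055 in wild type. C403A was thus the low strain of the 3, by 1.40-fold against C406A (log2 -0.49 ± 0.06, adjusted p = 0.0169). PHO84, the high-affinity phosphate transporter of the plasma membrane, read 5451 and 5078 in C403A, against 6829 and 6965 in C406A, with wild type above both at 7952 and 7852 (-0.39 ± 0.05, adjusted p = 0.0169). PHO8, the vacuolar alkaline phosphatase, read 1083 and 963 in C403A, against 1313 and 1358 in C406A and 1163 and 1193 in wild type (-0.39 ± 0.07, adjusted p = 0.0440). PHO5, PHO84 and PHO8 were named after their values were seen.

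PHM6, a phosphate-responsive gene whose product has no known function, had the largest difference of the list. It read 99.0 and 77.2 in C403A, against 191.0 and 177 in C406A and 193 and 170.4 in wild type. C403A was 2.11-fold lower than C406A (log2 -1.07 ± 0.15, adjusted p = 0.0241; -0.31 and 0.0779 with the floor at 148), and both C406A arrays lay within the wild-type range. SPL2, which encodes an inhibitor of low-affinity phosphate transport, read 371 and 444 in C403A, against 664 and 645 in C406A and 830 and 768 in wild type (-0.69 ± 0.09, adjusted p = 0.0241). GPP2, a glycerol-3-phosphatase gene that also belongs to the osmotic stress list, read 745 and 835 in C403A, against 1157 and 1118 in C406A (-0.53 ± 0.08, adjusted p = 0.0350). For GPP2 the wild-type arrays, at 781 and 856, lay with C403A.

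The vacuolar transporter chaperone genes, whose products make polyphosphate, did not pass. VTC1 had a difference of -0.21 ± 0.05 (adjusted p = 0.0695), VTC2 of -0.22 ± 0.06 (adjusted p = 0.134), VTC3 of -0.28 ± 0.06 (adjusted p = 0.0616) and VTC4 of -0.11 ± 0.10. In VTC1, VTC2 and VTC3 both C403A arrays lay below both C406A arrays, as with 6366 and 6378 against 7426 and 7363 for VTC1. PHO81, the inhibitor of the kinase pair, had -0.23 ± 0.10, the sodium phosphate cotransporter gene PHO89 had -0.32 ± 0.17 and CTF19, a kinetochore gene held in the list, had -0.82 ± 0.17 (adjusted p = 0.0680). GIT1, for uptake of glycerophosphoinositol, was at the floor on both C403A arrays and read 90.4 and 49.1 in C406A, which did not pass. PHM8 had -0.12 ± 0.18, PHO86 -0.00 ± 0.08, PHM7 0.13 ± 0.12 and PHO3, the constitutive acid phosphatase, 0.06 ± 0.09.

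The regulators of the pathway were not called. PHO4 had a difference of 0.11 ± 0.26, PHO80 of -0.16 ± 0.10 and PHO85 of -0.06 ± 0.08, and PHO2, which encodes the partner of Pho4, was at the floor on all 4 arrays. One low-affinity phosphate transporter gene outside the list, PHO87, went the other way. It read 706 and 703 in C403A, against 445 and 429 in C406A and 474 and 414 in wild type, and was 1.61-fold higher in C403A (log2 0.69 ± 0.09, adjusted p = 0.0169). The other low-affinity transporter genes PHO90 and PHO91 had differences of -0.01 ± 0.14 and -0.02 ± 0.06.

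**Figure D3:**
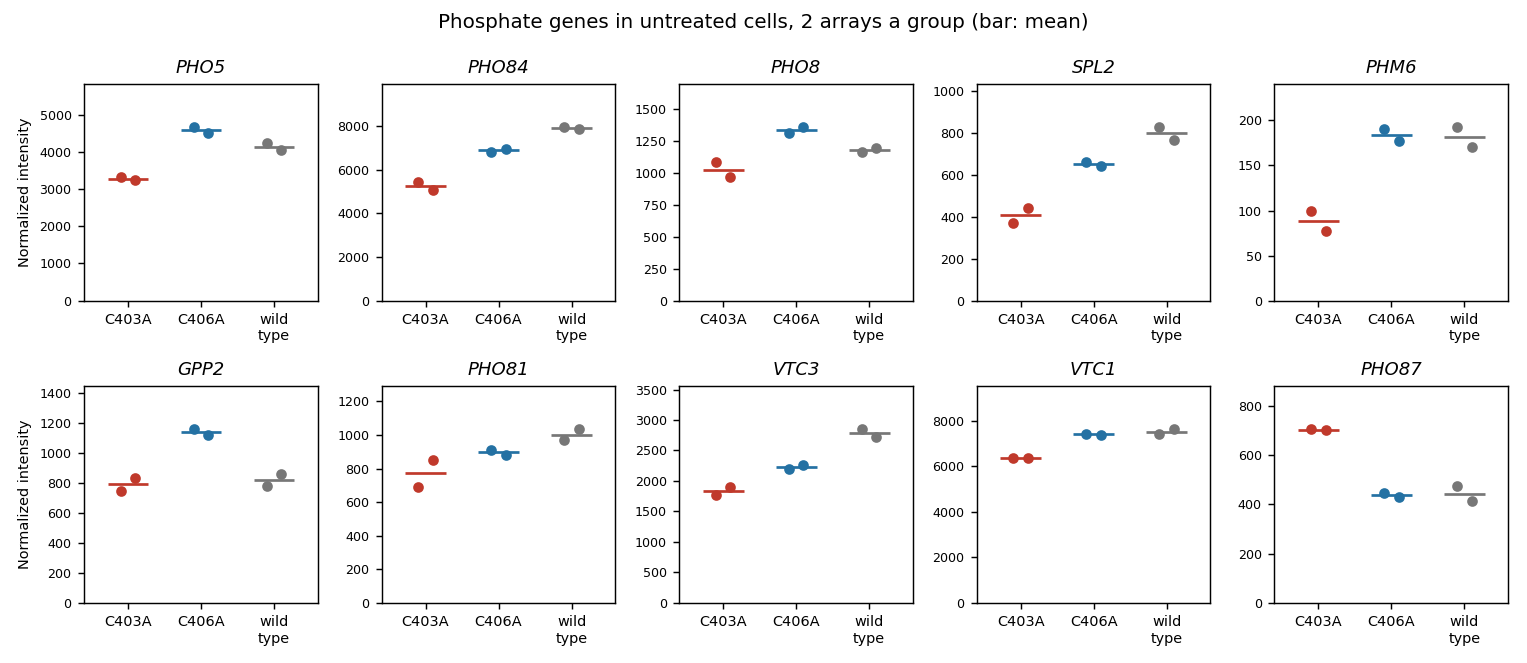
Normalized intensity (linear, from 0) of 10 genes of phosphate uptake and use in untreated C403A, C406A and wild type, with a point for each array and a bar at the mean of the 2. PHO5, PHO84, PHO8, SPL2, PHM6 and GPP2 passed as lower in C403A than in C406A and PHO87 as higher, while PHO81, VTC3 and VTC1 did not pass.

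HPF1, a mannoprotein of the cell wall, read 334 and 319 in C403A, against 503 and 568 in C406A and 624 and 667 in wild type. Its C403A arrays were the lowest of the 3 strains (log2 -0.71 ± 0.08, adjusted p = 0.0169). PIR1, a cell wall protein gene transcribed at the end of mitosis, was named after its value was seen, with 3780.2 and 3846 in C403A, against 4779 and 4832 in C406A (-0.33 ± 0.06, adjusted p = 0.0447). It was the only one of 39 cell wall genes and of 28 genes of the transition from mitosis to G1 that passed.

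FET4, a low-affinity iron transporter gene, read 177 and 161 in C403A, against 248 and 289 in C406A, and wild type was higher than both at 476 and 466 (-0.67 ± 0.11, adjusted p = 0.0370). It alone passed among 27 genes of the iron list and 23 of the hypoxic list. FCY21, a purine and cytosine permease gene, read 149.8 and 158 in C403A, against 233 and 258 in C406A and 329 and 341 in wild type (-0.67 ± 0.12, adjusted p = 0.0478). TNA1, the nicotinic acid transporter gene, was named after its value was seen, at 1589 and 1538 in C403A, against 2079 and 2186 in C406A (-0.45 ± 0.08, adjusted p = 0.0447). In FET4, FCY21 and TNA1 wild type lay above both mutants.

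HSP12, a small membrane-associated stress protein gene, and GPP2 were the 2 lower genes among 10 osmotic stress targets tested, against 0.317% of all genes. Of these 10, 6 were negative and 4 positive, with a median of -0.07 and values from -0.72 to 0.75. As deposited 7 of the 10 were positive, with a median of 0.15 against 0.24 for all genes. HSP12 read 426 and 382 in C403A, against 695 and 634 in C406A, and the wild-type arrays at 357 and 398 overlapped those of C403A. The difference was -0.72 ± 0.12 (adjusted p = 0.0447). HSP12 was also the only one of 50 genes of the Msn2-Msn4 general stress list that passed, and the median of that list was 0.01. The uncharacterized gene YJR115W had the lowest difference of the 35 genes that passed. It read 54.6 and 53.8 in C403A, against 160.9 and 160.8 in C406A and 42.8 and 43.4 in wild type, so that C406A was the strain that stood apart (-1.57 ± 0.24, 2.97-fold, adjusted p = 0.0368). With the floor at 148, which lies above its C403A and wild-type arrays, the difference was -0.12 (adjusted p = 0.426).

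The remaining 4 lower genes had differences between -0.57 and -0.52. SNR51, a box C/D small nucleolar RNA gene, read 235 and 239.6 in C403A, against 357 and 347 in C406A and 538 and 550.1 in wild type (-0.57 ± 0.10). AFB1, whose product blocks the mating pheromone a-factor, had -0.53 ± 0.09, PAT1, an activator of mRNA decapping, -0.52 ± 0.08, and the uncharacterized gene YGR079W -0.54 ± 0.10.

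The higher genes shared no list that passed in more than 1 member. EMC1, which encodes a subunit of the membrane protein insertion complex of the endoplasmic reticulum, read 716 and 856 in C403A, against 377 and 382 in C406A and 430 and 356 in wild type. It was 2.06-fold higher in C403A (log2 1.04 ± 0.12, adjusted p = 0.0169), and the C406A arrays lay inside the wild-type range. YAP1801, a clathrin assembly protein gene, read 576 and 677 in C403A, against 345 and 365 in C406A and 384 and 326 in wild type (0.82 ± 0.10, adjusted p = 0.0169). C406A and wild type overlapped there too.

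PDH1, a mitochondrial gene of propionate metabolism, read 363 and 294 in C403A, against 175 and 178 in C406A and 139 and 108 in wild type (0.89 ± 0.15, adjusted p = 0.0447). RTC2, a vacuolar membrane transporter gene for basic amino acids, read 151 and 189 in C403A, against 82.4 and 91.2 in C406A, and was at the floor on both wild-type arrays (0.96 ± 0.14, adjusted p = 0.0334). With the floor at 148 the difference was 0.19 (adjusted p = 0.443). LAM4, for a sterol transfer protein at membrane contact sites, read 552.5 and 478 in C403A, against 343 and 335 in C406A (0.60 ± 0.10, adjusted p = 0.0415). OPI10, a gene linked to phospholipid synthesis, read 150.5 and 188 in C403A, against 94.0 and 105 in C406A (0.76 ± 0.14, adjusted p = 0.0478), or 0.18 with the floor at 148 (adjusted p = 0.428).

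TEL1, the kinase gene related to human ATM that acts at telomeres and DNA breaks, read 169.5 and 167.5 in C403A, against 101 and 115 in C406A. Its wild-type arrays, at 153 and 145, lay nearer to C403A, and the difference between the mutants was 0.65 ± 0.12 (adjusted p = 0.0478), or 0.18 with the floor at 148 (adjusted p = 0.116). SAP185, a partner of the phosphatase Sit4, read 697 and 637 in C403A, against 459.6 and 476 in C406A and 734 and 686 in wild type (0.51 ± 0.09, adjusted p = 0.0491). NAT1, a subunit gene of the N-terminal acetyltransferase NatA, read 826 and 892 in C403A, against 606 and 619 in C406A and 785 and 781 in wild type, and was named after its value was seen (0.49 ± 0.08, adjusted p = 0.0415). In these 3 genes the low strain was C406A.

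HSP82, one of the genes for the chaperone Hsp90, read 3243 and 3365 in C403A, against 2519 and 2513 in C406A and 2472 and 2444 in wild type (log2 0.39 ± 0.06, adjusted p = 0.0340). It was the 1 of 28 heat shock and chaperone genes that passed (3.57%). Of that list 25 members were positive, its median was 0.19, and in 64.3% both C403A arrays lay above both C406A arrays, against 29.5% of all genes. The positive members numbered 26 after median scaling and scaled to hybridization controls, and 24 to 26 with an untreated mutant array left out. As deposited the list's median was 0.41, against 0.24 for all genes, and the median without array 2 of untreated C403A was 0.14. CYS3, for cysteine synthesis, was the 1 of 29 sulfur amino acid genes that passed, with 10614 and 11120.5 in C403A, against 9098 and 8650.1 in C406A (0.29 ± 0.04, adjusted p = 0.0340). SPG3, a gene needed for survival in stationary phase at high temperature, had 0.46 ± 0.08 (adjusted p = 0.0491). HSP82, CYS3 and SPG3 were named after their values were seen.

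YOL038C-A, RMR1 and YPS6 had the largest differences among the higher genes. YOL038C-A, an uncharacterized gene, read 136 and 219 in C403A, against 71.1 and 40.7 in C406A (1.68 ± 0.29, 3.21-fold, adjusted p = 0.0452), the largest difference of all that passed. With the floor at 148 it was 0.28 (adjusted p = 0.429). RMR1, a gene of meiotic recombination, read 79.0 and 94.7 in C403A, against 47.5 and the floor in C406A, and was the only one of the 35 with an array of the 4 at the floor (1.10 ± 0.19, adjusted p = 0.0445). YPS6, a cell surface protease gene, read 124 and 123 in C403A, against 70.4 and 49.5 in C406A (1.06 ± 0.17, adjusted p = 0.0392). In wild type YPS6 read 50.2 and 59.0, in the range of C406A, and RMR1 was at or near the floor.

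Taking the 35 genes by the position of wild type, the wild-type mean lay nearer to C406A for 15 of the 18 higher and 14 of the 17 lower genes. The 6 for which it lay nearer to C403A were TEL1, SAP185 and NAT1 among the higher and HSP12, GPP2 and YJR115W among the lower genes. The same count was not made over all genes, so it cannot be read as a trait of these 35. Wild type was not part of the difference, so these are levels side by side.

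In most other gene lists no member passed. Of 81 ribosome biogenesis genes none passed, although 66 were negative (2363 of 5368 over all genes), the median was -0.08, and 45.7% had both C403A arrays below both C406A arrays, against 20.2% of all genes. That share was 50% of 14 pyrimidine synthesis genes, 47.1% of 17 hexose transport genes and 46.4% of 28 genes of the transition from mitosis to G1, of which 1 passed, PIR1. On the values as deposited 71 of the 81 ribosome biogenesis genes were positive, with a median of 0.16 against 0.24 for all genes. Scaled to hybridization controls 45 of the 81 were negative, with a median of -0.02 against 0.06 for all genes. Without array 1 of untreated C406A 53 were negative. None passed among 80 cytosolic ribosomal protein genes (median -0.01), 36 proteasome genes (median 0.06) or 45 genes of RNA polymerase II and Mediator (median 0.03). Over the 55 lists, 2 had more than 1 member that passed, phosphate and osmotic stress, and they share GPP2.

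**Figure D4:**
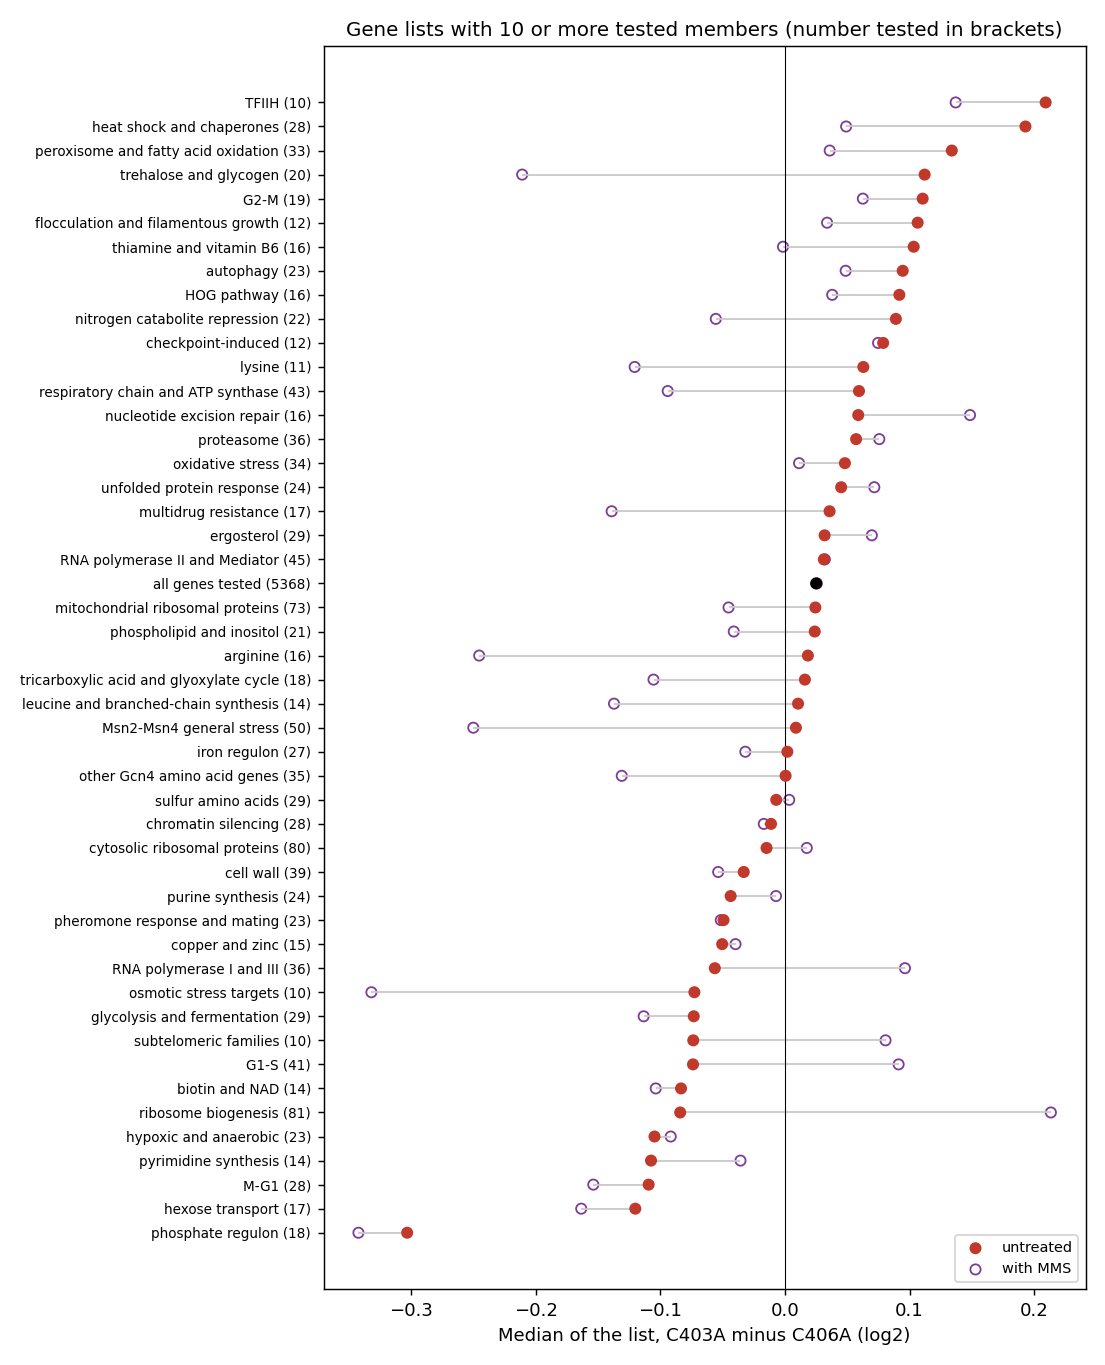
Median log2 difference, C403A minus C406A, of each gene list with 10 or more tested members, untreated (filled) and with MMS (open). All genes tested stand at 0.03 in both, the phosphate regulon is lowest untreated at -0.30, and TFIIH (0.21) and heat shock (0.19) are highest untreated.

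Whether the same genes separate the mutants under damage could be asked of 4 other arrays, those of MMS-treated C403A and C406A. Their differences share no array with the untreated ones, but both comparisons take each gene's spread from the same fit of all 12 arrays. A gene with a small spread there is favoured in both, so the 2 sets of calls are not independent. The MMS-treated C403A arrays were scanned at positions 7 and 8 and the MMS-treated C406A arrays at 11 and 12. Strain and scan order therefore cannot be told apart with MMS either, and agreement between the 2 comparisons does not separate them. With MMS 359 genes passed (6.69%), 189 higher in C403A (3.52%) and 170 lower (3.17%). Scaled to hybridization controls 761 passed, 6 higher and 755 lower, and the median MMS difference of all genes was -0.32. The near-even split of the MMS calls thus depended on the scaling. Of the 35 genes of the untreated comparison, 31 kept their sign with MMS (88.6%, against 64.2% of all genes), 15 of the 18 higher and 16 of the 17 lower. Both comparisons called 20 genes, 19 of them with one sign (7 higher, 12 lower). The 20 are 57.1% of the untreated calls, and the 19 are 5.29% of the MMS calls. Turned to the untreated sign, the median difference of the 35 was 0.60 untreated and 0.44 with MMS. As deposited 69.2% of the calls kept their sign, without array 2 of untreated C403A 63.3% and without array 2 of MMS-treated C403A 71.4%.

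SSL1 and SSK1 kept their differences with MMS, at 0.44 ± 0.08 (adjusted p = 0.0176) and 0.50 ± 0.07 (adjusted p = 0.00660). EMC1 read 750.1 and 753 in MMS-treated C403A, against 399 and 416 in MMS-treated C406A (0.88 ± 0.12, adjusted p = 0.00605), and TEL1 read 138 and 145 in C403A, against 90.8 and 78.3 in C406A (0.75 ± 0.12, adjusted p = 0.00941). HSP12 read 746 and 770.5 in MMS-treated C403A, against 1670 and 1961 in MMS-treated C406A, a difference of -1.26 ± 0.12 (adjusted p = 0.00194). HPF1 had -0.97 ± 0.08 (adjusted p = 0.000958), FET4 -0.59 ± 0.11 and GPP2 -0.60 ± 0.08.

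Of the 18 phosphate genes 7 were lower in C403A with MMS, against 3.17% of all genes, and none was higher. The median was -0.34, and 17 of 18 had the same sign as untreated. PHO5 read 2399 and 2383 in MMS-treated C403A, against 3806 and 4133 in MMS-treated C406A (-0.73 ± 0.06, adjusted p = 0.000935), and PHO84 had -0.57 ± 0.05 (adjusted p = 0.000958). VTC3 (-0.46 ± 0.06, adjusted p = 0.00410) and VTC2 (-0.31 ± 0.06, adjusted p = 0.0247), which had not passed untreated, passed with MMS. PHM6, the largest of the list untreated, had -0.37 ± 0.15 with MMS (adjusted p = 0.159), and its change between the conditions was not called (adjusted p = 0.301).

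The 4 genes of opposite sign with MMS were RTC2, YAP1801, SPG3 and YJR115W. RTC2 read 201 and 171.5 in MMS-treated C403A, against 299 and 334 in MMS-treated C406A, so that the strain order turned round (-0.77 ± 0.14, adjusted p = 0.0179). The test of the change in difference, untreated minus MMS, passed for 6 of all genes (0.112%; 572 at an unadjusted p under 0.05), RTC2 at 1.73 ± 0.20 (adjusted p = 0.0259) and YAP1801 at 1.11 ± 0.15 (adjusted p = 0.0298) among them. YAP1801 read 594 and 596 in MMS-treated C403A, against 704 and 755 in MMS-treated C406A. YJR115W had 0.21 ± 0.24 with MMS, with a change that was not called (adjusted p = 0.139). YPS6 and RMR1 differed by 0.03 ± 0.17 and 0.05 ± 0.19 with MMS, and their changes were not called either (adjusted p = 0.214 and 0.226).

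With MMS some list medians differed from those without it. The ribosome biogenesis genes, at a median of -0.08 untreated, stood at 0.21 with MMS, where 13 of 81 were higher in C403A (3.52% of all genes) and 72 were positive (2945 of 5368 over all genes). Scaled to hybridization controls that MMS median was -0.11 against -0.32 for all genes. The Msn2-Msn4 list stood at 0.01 untreated and -0.25 with MMS, where 16 of 50 were lower in C403A (3.17% of all genes). The osmotic stress targets stood at -0.07 and -0.33, with 2 of 10 lower in each, where 0.317% and 3.17% of all genes were lower. The heat shock list stood at 0.19 and 0.05, with 1 and 2 of 28 higher, where 0.335% and 3.52% of all genes were higher. The changes of these medians between untreated and MMS were not tested.

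**Figure D5:**
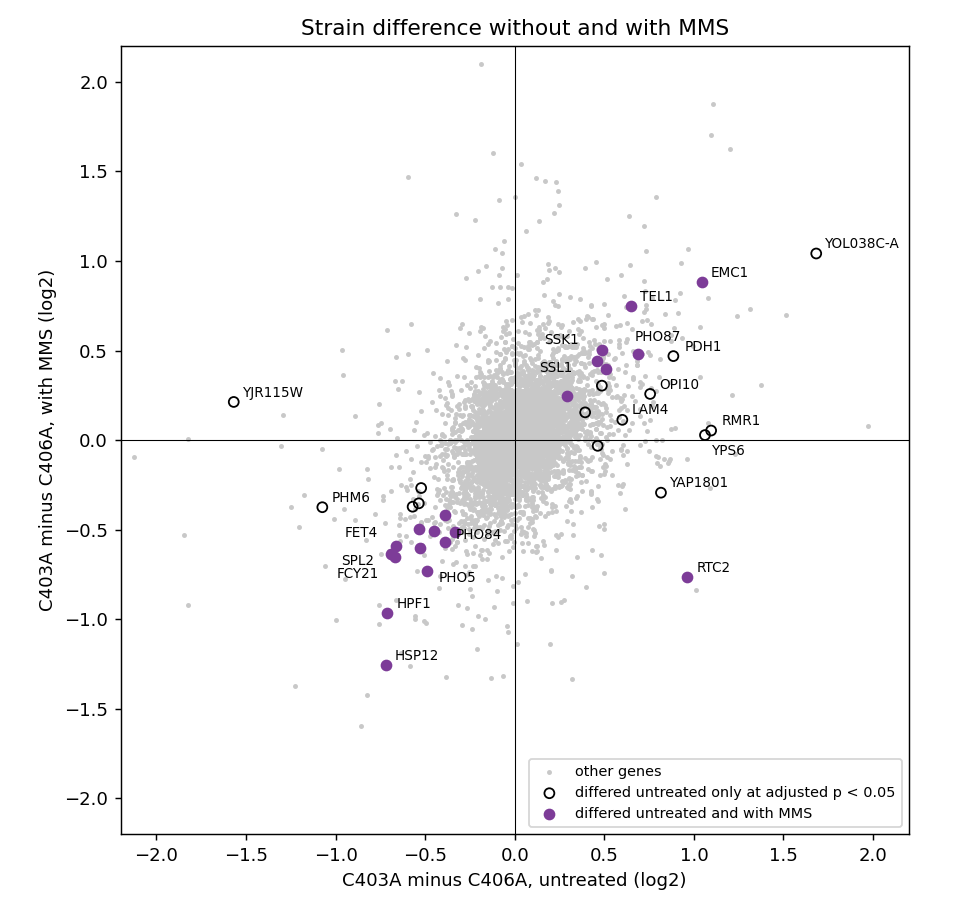
Difference C403A minus C406A with MMS (log2, vertical) against the same difference untreated (log2, horizontal), each point a gene, with 2 genes outside the axes. Filled purple points passed in both, 20 genes, and open circles passed untreated only, 15 genes. Of the 35, 31 lie in the quadrants of equal sign, and RTC2 is the 1 filled point in a quadrant of opposite sign.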

How the data were processed

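The arrays are Affymetrix yeast arrays, 2 for each of 6 groups, and the values are the one-colour signal intensity of 9335 probe sets as deposited by the authors, on a linear scale, 8.95% of them below 0. The software and scaling behind them are not given in the sources used here. The table held 0 columns of other samples. Intensities of all 12 arrays were quantile normalized without the 60 control probe sets, floored at their 20th percentile (34.463) and put on the log2 scale. The name table pairs 6504 probe sets with a single gene, 328 with several and 2503 with none. The single-gene kind was used, with the brightest probe set standing for a gene (5656 genes), and 5368 genes above the floor on 2 or more arrays were tested. Names and neighbours come from a RefSeq table, to which all 5368 matched.

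Group means of all 12 arrays were fitted with limma 3.58.1 in R 4.3.3 (lmFit and a trended eBayes, with 6 residual and 3.53 prior degrees of freedom) without a block. The contrasts were C403A minus C406A untreated, with MMS, and their difference. The members, the 55 gene lists and the tests were chosen with earlier results of these data known. Genes named were the 12 largest each way among those that passed without overlap, the TFIIH, marker and SSL1 neighbour genes, up to 3 members each way of lists with 2 or more that passed, the 6 largest each way that passed with and without MMS, and the 4 of smallest p in the change; others are said to be named after their values were seen, as were the other phosphate genes. Alternatives were other scalings, floors, filters, probe set rules, no trend, a fit of the compared groups alone, limma's array weights, a minimum of 2-fold and each array left out in turn. The scripts were tested on simulated data. Figures used matplotlib 3.10.9 in Python 3.11.15.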

Additional observations from a re-analysis of the deposited data

Results flagged for a closer look

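For 6 genes the C403A minus C406A difference itself differed between untreated and MMS-treated cells in limma's test of that change (Benjamini-Hochberg adjusted p under 0.05). For RTC2 the untreated difference was 0.96 and the MMS difference -0.77, a change of 1.73 ± 0.20. For YAP1801 they were 0.82 and -0.29, a change of 1.11 ± 0.15. The alcohol dehydrogenase gene ADH5 read 1090.0 and 1372 in untreated C403A, against 1009 and 1034 in untreated C406A, and 963 and 880 in MMS-treated C403A, against 1686 and 1755 in MMS-treated C406A, a change of 1.16 ± 0.14 (adjusted p = 0.0259). SNZ1, a vitamin B6 synthesis gene, changed by 0.80 ± 0.11, with 0.06 untreated and -0.75 with MMS. The remaining genes had negative changes: RBG1, a gene for a GTPase that binds ribosomes, changed by -0.45 ± 0.06 (0.07 untreated, 0.52 with MMS), and UTP23, a ribosome assembly gene, by -0.85 ± 0.12 (-0.25 untreated, 0.60 with MMS). SNZ1 and UTP23 were named after their values were seen. Without either untreated C406A array no gene passed this test.

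Probe sets that the name table pairs with several genes or with none were outside the comparison. Of 1798 such probe sets tested in the same way, 13 differed between untreated C403A and untreated C406A at an adjusted p under 0.05 over these probe sets, 6 higher and 7 lower in C403A (282 at an unadjusted p under 0.05). Of the 13, 2 have several genes and 11 are unnamed here. The probe set shared by PHO12 and PHO11 had -0.51 ± 0.09, and that shared by FLO5, FLO1 and FLO9 had 0.68 ± 0.12 (limma adjusted p = 0.0427 for each). These genes were named after their values were seen. The unnamed probe set of smallest p read 927 and 1174 in C403A, against 282 and 383 in C406A, a log2 difference of 1.67 ± 0.18.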

How the results depend on the processing

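No paired analysis was possible because the labels number no replicates. Against 35 genes that differed untreated, 19 did after median scaling, 13 as deposited, 4 scaled to hybridization controls, 20 without the intensity trend, 0 in the compared groups alone, 11 with array weights and 6 with a 2-fold minimum. Leaving out 1 array gave 0 to 107, and 7 to 31 for arrays of the other groups. The 6 phosphate genes were 3, 0, 0, 3, 0, 5 and 1 under the same 7 settings and 0 to 7 with an untreated mutant array left out. The 359 genes that differed with MMS were 28 as deposited, 761 scaled to hybridization controls, 237 without the trend, 3 in the compared groups alone, 22 with a 2-fold minimum and 62 to 271 with an array left out. The 6 changes between untreated and MMS were 2 as deposited, 18 with the floor at the 40th percentile, 15 without the filter, 1 without the trend, 14 with the mean of probe sets, 0 with the 2 mutants alone, 3 with a 2-fold minimum and 0 to 64 with an array left out.

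The share of genes that kept their sign with MMS, 88.6%, was 69.2% as deposited and 63.3% to 87% with an array left out, with no value without a C406A untreated array, where no gene differed. SSL1, at 0.46 in the reported fit, lost its call at 0.44 after median scaling, 0.66 as deposited, 0.48 scaled to hybridization controls and 0.46 without the floor, the filter or the trend, in the compared groups alone and with array weights, and at 0.42 to 0.50 with an array left out. Of 724 results of single named genes under alternatives, 431 kept sign and side of the threshold, 285 lost a call, 1 gained one and 7 changed sign. The last were NSE1 (0.13), TFB1 (0.07), TFB2 (0.14) and HIS3 (0.13) as deposited, ADE2 without C406A array 1 (-0.25) or C403A array 2 (-0.11; range 0.26 at the top), and TFB4 without C406A array 2 (-0.05, range up to 0.13), none of them called. None of the 35 genes changed sign in the settings where a gene had 1 value. With an array left out this was fixed in advance, as their arrays did not overlap. As deposited, array brightness enters the values, which moved the median of all genes to 0.24; elsewhere the cause was not tested.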
